A study of Mus musculus with 42 samples.

Results

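RNA that came down with TIA1 from the cytoplasm of non-treated (NT) cells was measured in 4 of the 42 libraries of the series, with 2 replicates of TIA1 RIP and 2 of input. The cells were NIH3T3, a mouse fibroblast line, grown without arsenite. For ribonucleoprotein immunoprecipitation (RIP), a goat anti-TIA1 antibody on beads was used to pull down TIA1 with its RNA from the supernatant left after nuclei were removed. A small portion of the same supernatant was kept as the input of that replicate. Replicates 1 and 2 therefore pair TIA1 RIP with input. The RNA of both was sequenced by 3′READS, in which each read ends at a polyadenylation site (PAS). No RIP with a control antibody was used here, so binding to TIA1 and to the beads or antibody cannot be told apart. For comparison, 4 libraries of the same kind were read from cells given 250 µM sodium arsenite for 1 h (AS).

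TIA1 is an RNA-binding protein with RNA recognition motifs that prefer U-rich stretches. It is known for repressing the translation of bound mRNAs and for collecting mRNAs in stress granules when translation initiation stops. Its paralog is TIAL1, also called TIAR. In unstressed cells much of the protein is nuclear, and the RIP here sampled its cytoplasmic part.

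PAS reads were summed per gene, over sites in the 3′-most exons or up to 4000 nt past their annotated end, and scaled to a total of 1000000 assigned reads (RPM). The input libraries held 3642602 and 2524260 listed PAS reads, and the TIA1 libraries 3191581 and 6143334, of which 84.8 to 90.6% were assigned. Mitochondrial reads, which were not counted, made up 1.92 and 5.56% of the TIA1 libraries and 5.45 and 4.25% of the input libraries. The files leave out any site cluster below 5 reads in that library, so a level of 0 means not listed. All 10 fibroblast markers had reads, with summed levels of 7434 to 8704 RPM in input and 5630 to 6447 RPM in TIA1 RIP, and none of the 8 epithelial markers was listed. In bulk RNA such as this, fewer cells of a type and less RNA per cell cannot be told apart. Of 10670 genes with reads, 8780 had enough to be tested.

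Binding was read as log2(TIA1/input), the mean of 2 values, 1 per replicate pair, each after adding 0.5 RPM to both levels. TIA1 RIP pulled the transcriptome apart in both directions. With the replicate pairs as a block, 528 genes were higher in TIA1 RIP (6.01% of those tested) and 401 were lower (4.57%), by edgeR's quasi-likelihood test with a Benjamini-Hochberg adjusted p under 0.05. The medians of these genes were 2.12 and −1.93. All 929 went the same way in both replicates, which their choice by a test on these same pairs makes likely. The direction of the surplus depended on scaling, with 449 genes higher and 520 lower after DESeq2's median-ratio size factors, and 622 higher and 756 lower by the DESeq2 Wald test. The calls depended on the pairing too. Without the replicate block edgeR called 0 genes, with 1794 at an unadjusted p under 0.05 against 2518 with the block. The block leaves 1 residual degree of freedom, so the test leans on the spread shared among genes.

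The quartiles of all 8780 genes were −0.81 and 0.95, around a median of 0.06. The 2 replicates had the same sign in 72.8% of genes, 3474 above 0 and 2919 below. Across genes, which are not independent replicates, their values correlated with a Pearson r of 0.55, and with r = 0.72 over the 5614 genes with a mean of at least 20 RPM. The SD between the replicates of a gene was 0.54 in the median, and 0.41 at that level. When genes were ordered by replicate 1 alone, the top 10% (878 genes) had a median of 2.05 in replicate 2, and 91.5% of them were above 0 there, against 52.4% of all genes. The bottom 10% had a median of −1.18 in replicate 2, with 77.3% below 0, against 47.1% of all genes. Ordered by replicate 2, the medians in replicate 1 were 1.75 and −1.22.

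**Figure D1:**
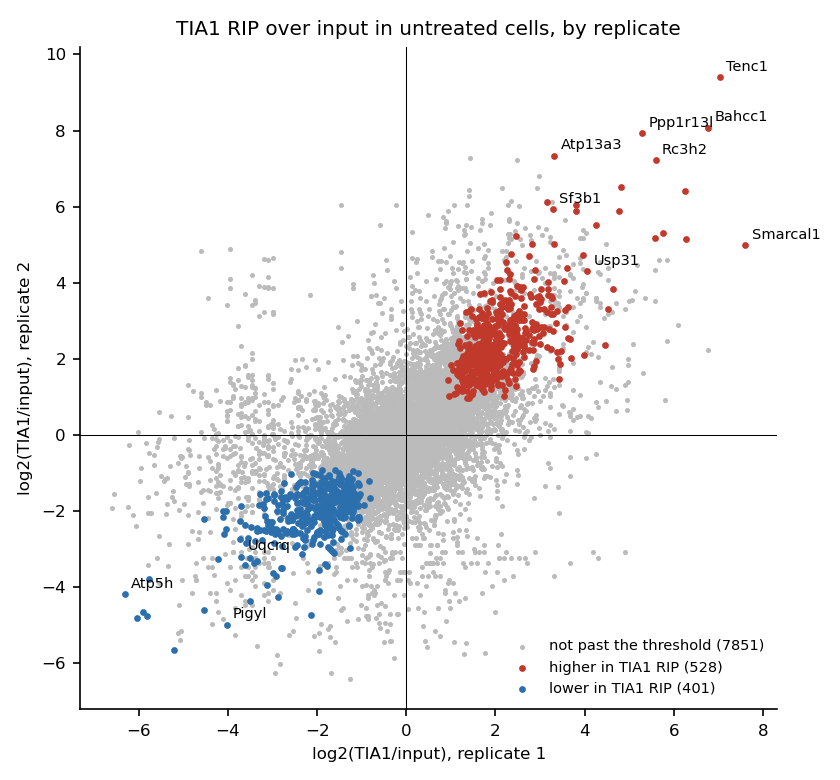
Log2(TIA1/input) of each tested gene in replicate 1 (x axis) and replicate 2 (y axis), with genes past the threshold in color. The 528 higher genes lie at the upper right and the 401 lower genes at the lower left. Atp13a3 lies farther from the diagonal than the other labelled genes, with 3.32 in replicate 1 and 7.34 in replicate 2.

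The 12 highest and 12 lowest genes among those past the threshold, with at least 20 RPM in the mean of the 4 libraries, were taken as leading genes. Their means ran from 4.18 to 8.22 and from −5.25 to −3.37. Just inside the upper limit was Usp31 at 4.18 and just outside Fbxo48 at 4.16, and at the lower limit these were Uqcr11 at −3.37 and Sbsn at −3.36. To show what the ends of these messages look like, the 30-nt window with the most Ts between the stop codon and the main PAS was read from mm9, for 2 leading genes with U-rich 3′UTRs, 3 with U-poor 3′UTRs and 2 of the lowest. Sequences are on the strand of the gene and 5′ to 3′, with T for U, and capitals mark runs of at least 4 Ts.
Rc3h2: TTTTcTTTTctgtcTTTTTTTTTTTTTTTT
Zfhx3: TTTTTaTTTTTTTTTaTTTTaTTTTTTTTT
Tenc1: tctaTTTTTgtgtaataataaagaatttct
Ppp1r13l: ttcatttctctctgagtcctttcctcctct
Smarcal1: tggggctcattgaaataaagtaTTTTcttt
Atp5h: cgacatgaaataaaacatttaaatagtgct
Cox6b1: gcccacctctcctctgttctttgtctttct

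These windows lie at chr2:37230189-37230218 (minus strand), chr8:111482823-111482852 (plus), chr15:101946793-101946822 (plus), chr7:19963690-19963719 (plus), chr1:72679675-72679704 (plus), chr11:115277008-115277037 (minus), and chr7:31402089-31402118 (minus), in the order shown.
All lie between the stop codon and the main PAS of the named gene. That PAS is in the annotated 3′-most exon, except in Zfhx3 and Ppp1r13l, where it lies past the annotated end. Over the 12 highest genes, the densest window held 13 to 27 Ts with a median of 19.5, and 10 of 12 windows had a run of at least 4. Over the 12 lowest genes it held 8 to 15 Ts with a median of 12, and 3 of 12 had such a run. Over all tested genes the densest window held a median of 17 Ts, and 88.8% of genes had a UUUU somewhere in the 3′UTR. Longer 3′UTRs offer more windows, so these numbers also follow length.

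Tenc1, which encodes the focal adhesion protein tensin 2, had the highest value with a pseudocount of 0.5 RPM. It was not listed in either input, while TIA1 RIP held 65.0 and 338 RPM in replicates 1 and 2. Its reads came almost wholly from 1 site, at position 101946827 of chromosome 15, with 188 and 1754 reads. Since up to 4 reads can go unlisted, Tenc1 was at least 51.5-fold higher in replicate 1 and at least 183-fold higher in replicate 2. Its log2(TIA1/input) was 8.22 ± 1.68 (SD, n = 2; edgeR adjusted p = 0.0201). With a pseudocount of 5 RPM it was 4.95, below Smarcal1 at 5.91 and Ppp1r13l at 5.71, and with 0.1 RPM it was 10.54.

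Bahcc1, a chromatin-associated gene with a bromo-adjacent homology domain, was also not listed in either input. TIA1 RIP held 53.9 and 134 RPM, at least 42.7-fold and 72.6-fold higher, and its log2 value was 7.42 ± 0.93 (SD, n = 2). Ppp1r13l, which encodes the p53 inhibitor iASPP, had 6.94 and 3.24 RPM in input and 290 and 914 RPM in TIA1 RIP, a log2 value of 6.61 ± 1.87. Smarcal1, a DNA annealing helicase of replication fork repair, rose from 8.52 and 30.1 RPM to 1758 and 964 RPM, with 6.29 ± 1.86. In each of these genes both TIA1 libraries were far above both input libraries, and the replicates differed by more than the spread of most genes.

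Rc3h2 encodes roquin-2, an RNA-binding protein that promotes the decay of mRNAs with stem-loops. It had 1.58 and 0 RPM in input and 99.9 and 74.1 RPM in TIA1 RIP (6.41 ± 1.15, SD, n = 2). Unlike Tenc1, its reads were spread over 11 sites, and the main one held 33.8% of them. Usp31, a deubiquitinase gene, had 9.15 and 6.94 RPM in input and 161 and 147 RPM in TIA1 RIP. Its 4.18 ± 0.17 was the closest agreement between replicates among the 12.

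The most abundant leading gene was Sf3b1, a core component of the splicing machinery. It had 262 and 206 RPM in input and 2576 and 12630 RPM in TIA1 RIP, a log2 value of 4.61 ± 1.86 (SD, n = 2; edgeR adjusted p = 0.0239). Nearly all of its reads, 97.2%, ended at a site only 311 nt past the stop codon, with 798 and 446 reads in input and 7271 and 63933 in TIA1 RIP. Sec24b, which encodes a cargo-binding subunit of COPII vesicle coats, had 52.1 and 56.5 RPM in input and 1002 and 2585 RPM in TIA1 RIP (4.88 ± 0.88). AW555464 had 56.5 and 36.6 RPM in input and 883 and 975 RPM in TIA1 RIP (4.34 ± 0.54). Wwp2, a ubiquitin ligase gene, had 21.1 and 11.1 RPM against 541 and 165 RPM (4.24 ± 0.57).

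Atp13a3, a cation-transporting P-type ATPase gene, and Zfhx3, a zinc finger homeobox gene, were lower in level. Atp13a3 had 6.94 and 0 RPM in input and 73.6 and 80.5 RPM in TIA1 RIP (5.33 ± 2.84), and Zfhx3 had 5.05 and 0 RPM against 48.7 and 34.4 RPM (4.64 ± 2.10). Their adjusted p-values of 0.042 and 0.0498 by edgeR were the largest of the 12, and their input replicate 2 was unlisted.

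The 12 highest genes fell into unlike kinds of 3′UTR, a reading made after their values were seen. Of these, 7 had a U share of 18.8 to 25.8%, below the median of 29.4% over all tested genes. They were Tenc1, Bahcc1, Ppp1r13l, Smarcal1, Sec24b, AW555464 and Wwp2. The 3′UTR to the main PAS was 80 nt in Smarcal1, 400 nt in Tenc1, 531 nt in Ppp1r13l and 709 nt in Sec24b. The other 5 had a U share of 32.9 to 40.8%, among them Usp31 with a 3′UTR of 6163 nt and 122 UUUUs, Zfhx3 with 4538 nt and 169, and Rc3h2 with 2613 nt and 101. Sf3b1 was the short one of this kind.

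**Figure D2:**
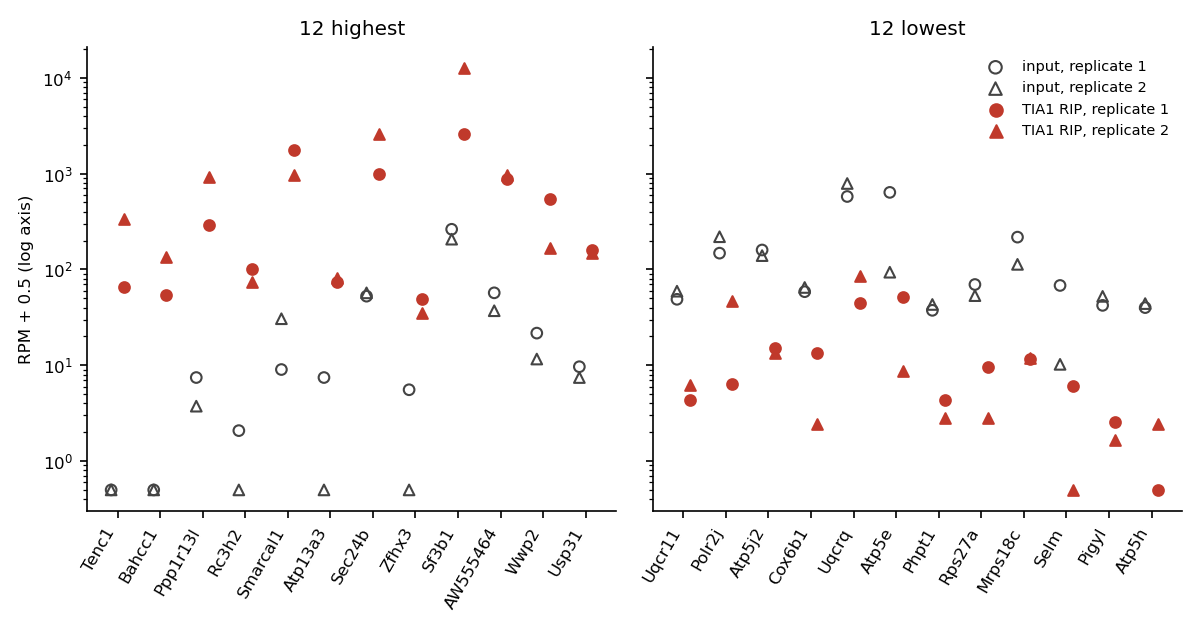
Level of the 12 highest and 12 lowest genes in each untreated library, in RPM plus 0.5 on a log axis. Open symbols are input and filled symbols TIA1 RIP, circles replicate 1 and triangles replicate 2; points at 0.5 were not listed, and in every gene shown both filled symbols lie on the same side of both open ones.

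At the other end stood mostly small subunits of mitochondrial and ribosomal complexes. Of the 12 lowest genes, 6 encode subunits of the respiratory chain or ATP synthase. Atp5h, a subunit of ATP synthase, had 39.5 and 43.5 RPM in input and 0 and 1.92 RPM in TIA1 RIP (−5.25 ± 1.51, SD, n = 2; edgeR adjusted p = 0.0316). Uqcrq, a subunit of the cytochrome bc1 complex, was the most abundant of them, with 577 and 788 RPM in input and 43.9 and 85.4 RPM in TIA1 RIP (−3.45 ± 0.36).

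Atp5e fell from 637 and 93.0 RPM to 51.5 and 8.26 RPM. Its input levels differed widely between replicates, yet its ratios differed little, at −3.52 ± 0.14. Atp5j2 had 159 and 139 RPM in input and 14.5 and 13.1 RPM in TIA1 RIP, and its SD of 0.03 around −3.39 was the smallest among the leading genes. Cox6b1 of cytochrome c oxidase (−3.44 ± 1.84) and Uqcr11 of the cytochrome bc1 complex (−3.37 ± 0.18) completed the 6.

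Mrps18c of the mitochondrial ribosome had 217 and 112 RPM in input and 11.1 and 11.3 RPM in TIA1 RIP (−3.74 ± 0.69). Rps27a, which encodes a ribosomal protein fused to ubiquitin, had −3.56 ± 0.97. The remaining genes were Pigyl (−4.51 ± 0.67), Selm, which encodes a selenoprotein (−3.92 ± 0.61), Phpt1, a protein histidine phosphatase gene (−3.53 ± 0.58), and Polr2j, a subunit of RNA polymerase II (−3.38 ± 1.64). All 12 had 3′UTRs under 500 nt, from 38 to 191 nt, and 8 of 12 had no UUUU in them. With a pseudocount of 5 RPM, 7 other leading genes with unlisted or scarce levels in a fraction also moved by over 1.5 times. Bahcc1 was then at 4.18, Rc3h2 at 3.99, Atp13a3 at 3.41 and Zfhx3 at 2.70. Atp5h was at −2.98, Pigyl at −2.96 and Selm at −2.17. Many ribosomal and respiratory chain genes have processed pseudogenes, and reads that fit a copy as well as the gene can be lost at the mapping step, so values of these genes are uncertain.

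Beyond the leading genes, the top and bottom 10% of all tested genes (878 each) were described without a test, since log2(TIA1/input) itself chose them. The top 10% began at 1.84 and the bottom 10% ended at −1.65. The most bound genes had a median 3′UTR of 2379 nt to the main PAS, the least bound 222 nt, and all genes 741 nt. Only 10.7% of the most bound genes had a 3′UTR under 500 nt, against 76.2% of the least bound and 37.5% of all. The median U share was 32.0% in the most bound, 27.4% in the least bound and 29.4% in all genes. UUUU occurred 1.81 times per 100 nt in the most bound and 0.616 times in the least bound genes, so U runs were denser and not only more numerous.

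Coding regions were longer as well, with a median of 1686 nt in the most bound and 738 nt in the least bound genes. The most bound genes were the scarcer ones in input, at a median of 6.03 RPM against 24.2 RPM in the least bound and 29.5 RPM in all genes. Input is also the denominator of the ratio, and 77 of the most bound genes were not listed in either input. A gene with too few reads in input was tested only if its reads in TIA1 RIP were enough. Low input among the most bound genes therefore also follows in part from which genes could be tested. Of the least bound genes, 68 were not listed in either TIA1 library.

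Length and U content were then read together. Genes were split by 3′UTR length into 5 bins of equal size, and each bin at its median U share. From the shortest bin (1 to 253 nt) to the longest (1939 to 14784 nt), the median log2(TIA1/input) went from −0.95 to 1.22 through −0.47, −0.04 and 0.47. Within every bin the genes with the higher U share had the higher median. In the shortest bin the medians were −1.12 below and −0.75 above the median U share, and in the longest they were 0.95 and 1.53.

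The calls followed the same order. In the longest bin 353 of 1740 genes passed the test as higher and 1 as lower, and in the shortest bin 10 passed as higher and 272 as lower. In the longest bin, 29.3% of the genes with the higher U share were called higher and 11.3% of the others, against 6.01% of all genes tested. Across 8699 genes with a 3′UTR length, the Pearson r of log2(TIA1/input) was 0.54 with the log10 of that length, 0.22 with the U share and 0.32 with the log10 of the coding length. These measures are related to each other and genes are not independent, so they are given as a description.

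**Figure D3:**
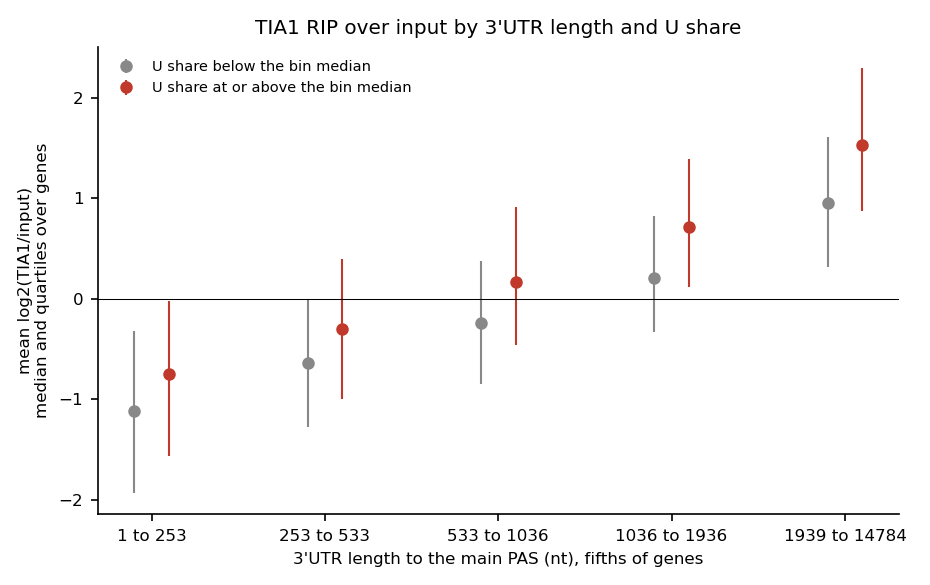
Median log2(TIA1/input) of tested genes in 5 bins of 3′UTR length in nt (x axis), with bars to the quartiles over genes, separately for genes below (gray) and at or above (red) the median U share of their bin. Medians climb from −1.12 and −0.75 in the shortest bin to 0.95 and 1.53 in the longest.

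Among functional classes, the lowest medians belonged to protein complexes of energy metabolism and protein synthesis and turnover. Of 70 tested nuclear-encoded respiratory chain subunits, 37 were lower in TIA1 RIP (52.9%, against 4.57% of all genes) and 0 were higher. In both replicates 64 were below 0, against 2919 of all 8780 genes. The class median was −1.96. Atp5l of ATP synthase had 29.7 and 12.0 RPM in input and was not listed in either TIA1 library, at least 21.5-fold and 15.7-fold lower. The most abundant member in input, Cox7a2l, went from 2387 and 4170 RPM to 1430 and 2148 RPM, −0.85 ± 0.15 (SD, n = 2), and did not pass (edgeR adjusted p = 0.0724). The highest member was Cox5b at 1.13 ± 0.81, with a 3′UTR of 372 nt at its main site against a class median of 128 nt.

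Of 62 cytosolic ribosomal protein genes, 26 were lower (41.9%, against 4.57% of all genes) and 0 higher, with a median of −1.87. In both replicates 54 were below 0, against 2919 of all 8780 genes. Rpl8, the most abundant, had 10215 and 21459 RPM in input and 3330 and 5352 RPM in TIA1 RIP (−1.81 ± 0.27, SD, n = 2; edgeR adjusted p = 0.0201). Rpl37 had 18.0 and 24.5 RPM in input and was not listed in TIA1 RIP, at least 13.0-fold and 31.9-fold lower. Rpl7, the highest, was measured from few reads (2.93 ± 2.84) and did not pass. The median 3′UTR of this class was 63 nt, the shortest of all classes.

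Mitochondrial ribosomal proteins (67 genes, median −1.20) had 18 lower (26.9%, against 4.57% of all) and 0 higher genes. Mrpl27 was the lowest at −4.57 ± 0.06 and Mrps6 the most abundant, with 971 and 946 RPM in input and 462 and 382 RPM in TIA1 RIP (−1.19 ± 0.17). Of 31 proteasome subunits, 9 were lower (29.03%, against 4.57% of all) and 1 was higher (3.23%, against 6.01%), with a median of −1.25. The exception was Psmd11, a subunit of the regulatory lid, with 159 and 172 RPM in input and 405 and 577 RPM in TIA1 RIP (1.55 ± 0.28, SD, n = 2; edgeR adjusted p = 0.0325). Its main 3′UTR of 1539 nt compares with a class median of 169 nt. Psmd12 was the lowest (−2.62 ± 1.18) and Psmd7 the most abundant (−1.47 ± 0.85, not past the threshold).

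Subunits of the CCT chaperonin and prefoldin (13 genes, median −0.94) had 4 lower genes (30.8%, against 4.57% of all) and 1 higher (7.69%, against 6.01%). The higher one, Pfdn2, went from 225 and 433 RPM to 495 and 1032 RPM (1.19 ± 0.08, SD, n = 2; edgeR adjusted p = 0.0467). Its main 3′UTR was 144 nt, and 53.5% of it was U. Pfdn5, with a 3′UTR of nearly the same length and 24.8% U, was the lowest (−1.81 ± 0.42). Whether U content bears on these values was not tested. Tcp1, the most abundant, was at −0.23 ± 0.11 and did not pass. Cytosolic aminoacyl-tRNA synthetases, which charge tRNAs, had a median of −0.86 over 17 genes, with 0 higher and 2 lower genes (11.8%, against 4.57% of all), Hars at −1.60 ± 0.57 and Rars at −1.29 ± 0.04. Mars was the highest at −0.10 ± 0.19.

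Translation initiation and elongation factors (57 genes, median −0.66) had 3 higher genes (5.26%, against 6.01% of all genes) and 5 lower (8.77%, against 4.57%). The 5 lower genes were Eef1d (−2.99 ± 0.88, the lowest), Eef1b2, Eif1ax, Eif2b4 and Eif3f, which encode elongation and initiation factor subunits. The 3 higher genes do something else than the name of the list says. Eif2c1 (2.67 ± 0.50) and Eif2c4 (3.14 ± 0.29) encode Argonaute proteins, which carry miRNAs, and Eif2ak4 (1.69 ± 0.27) encodes an eIF2 kinase. Eif2c3, another Argonaute gene, had the highest value of the list, 4.61 ± 1.49, from 1.58 and 0 RPM in input and 23.9 and 24.8 RPM in TIA1 RIP, and did not pass (edgeR adjusted p = 0.0635). Eef2, the most abundant, was at −0.34 ± 0.24 and did not pass. Genes named in this and the next paragraphs only because they passed within a list were chosen after their values were seen.

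Among classes with at least 5 tested members, the highest medians belonged to genes of RNA-binding proteins and of transcription and chromatin. Of 19 genes for proteins that bind AU-rich or U-rich elements, 5 were higher (26.3%, against 6.01% of all genes) and 0 lower, with a median of 1.24. In both replicates 15 were above 0, against 3474 of all 8780 genes. Besides Rc3h2 the genes called higher were its paralog Rc3h1 (2.81 ± 0.09), Celf2 (2.77 ± 0.95), Tial1 and Elavl1. Elavl1 encodes HuR, which binds and stabilizes AU-rich mRNAs, and it was the most abundant of them, with 1180 and 985 RPM in input and 3128 and 1927 RPM in TIA1 RIP (1.19 ± 0.31, SD, n = 2; edgeR adjusted p = 0.0418). Hnrpdl was the lowest at −1.18 ± 0.57 and did not pass.

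TIA1 RIP also held the messages of TIA1 itself and its paralog. Tial1 had 53.7 and 27.8 RPM in input and 251 and 64.1 RPM in TIA1 RIP (1.70 ± 0.72, SD, n = 2; edgeR adjusted p = 0.0488). Tia1 had 62.8 and 68.5 RPM in input and 122 and 152 RPM in TIA1 RIP. Both TIA1 libraries were above both inputs, at 1.05 ± 0.14, but the gene did not pass (edgeR adjusted p = 0.1).

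Of 17 genes listed as stress granule proteins, 3 were higher (17.6%, against 6.01% of all genes) and 0 lower, with a median of 0.73. The list is broad and takes in Tnrc6 genes of miRNA silencing, so its share is not of stress granule proteins alone. Tnrc6b, which encodes a scaffold of miRNA silencing, had 14.5 and 10.6 RPM in input and 120 and 125 RPM in TIA1 RIP (3.25 ± 0.34, SD, n = 2; edgeR adjusted p = 0.022). Its paralog Tnrc6a (1.70 ± 0.10) and Fmr1, the fragile X RNA-binding protein gene (2.35 ± 0.62), were the others. The cold shock domain genes Ybx1 (−2.69 ± 1.07) and Csda (−1.06 ± 0.65) lay at the lower end and did not pass.

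Chromatin regulators (67 genes, median 0.93) had 7 higher genes (10.4%, against 6.01% of all) and 1 lower (1.49%, against 4.57%). The higher ones were Arid1b (3.23 ± 0.95) of the SWI/SNF remodeling complex, the histone demethylase gene Kdm5a (3.09 ± 0.72), Chd9, Setd7, Setd1a, Setd5 and Hdac4. The lower one, Smarcb1 (−2.30 ± 0.03), belongs to the same remodeling complex as Arid1b. Chd6 (4.05 ± 1.96), Chd4 (−2.36 ± 1.99) and Baz1b (−0.44 ± 0.84), the highest, the lowest and the most abundant, did not pass.

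Zinc finger transcription factors were the largest class, with 239 tested genes, a median of 0.70, 14 higher and 2 lower. Their share of higher genes (5.86%) was close to the 6.01% of all genes, and their share of lower genes was 0.837%, against 4.57%. In both replicates 134 were above 0 and 41 below, against 3474 and 2919 of all 8780 genes. Zinc finger genes were scarce, with a median of 9.32 RPM in input against 29.5 RPM over all genes. Of the class, 6 genes were not listed in either input and 2 in neither TIA1 library. Such genes could be tested only through their reads in the other fraction. Zfp560 was not listed in input and had 26.6 and 19.4 RPM in TIA1 RIP, at least 21.1-fold and 10.5-fold higher. Zfp706, the most abundant, was at 1.11 ± 0.86 and did not pass, and Zfp772, the lowest at −3.59 ± 0.15, was not listed in TIA1 RIP and did not pass.

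Small GTPases (77 genes, median 0.43) had 10 higher and 0 lower genes, against 6.01% higher among all genes. They included Rap1b (1.91 ± 0.69), Rab21 (2.03 ± 0.44), Arf3 (1.82 ± 0.02) and Arl5b (3.28 ± 1.34). The most abundant member, Arl8b, was at 0.76 ± 0.28 and did not pass, and neither did Rab27b (3.33 ± 0.68) and Rab9 (−2.76 ± 2.66) at the ends. Ubiquitin-conjugating enzymes (26 genes, median 0.51) had 3 higher (11.5%, against 6.01% of all) and 0 lower genes. The higher genes were Ube2g1 (1.99 ± 0.26), Ube2v2 and Ube2q1. Ube2m, the lowest at −1.22 ± 0.15, and Ube2e1, the most abundant in input at −0.79 ± 0.33, did not pass.

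**Figure D4:**
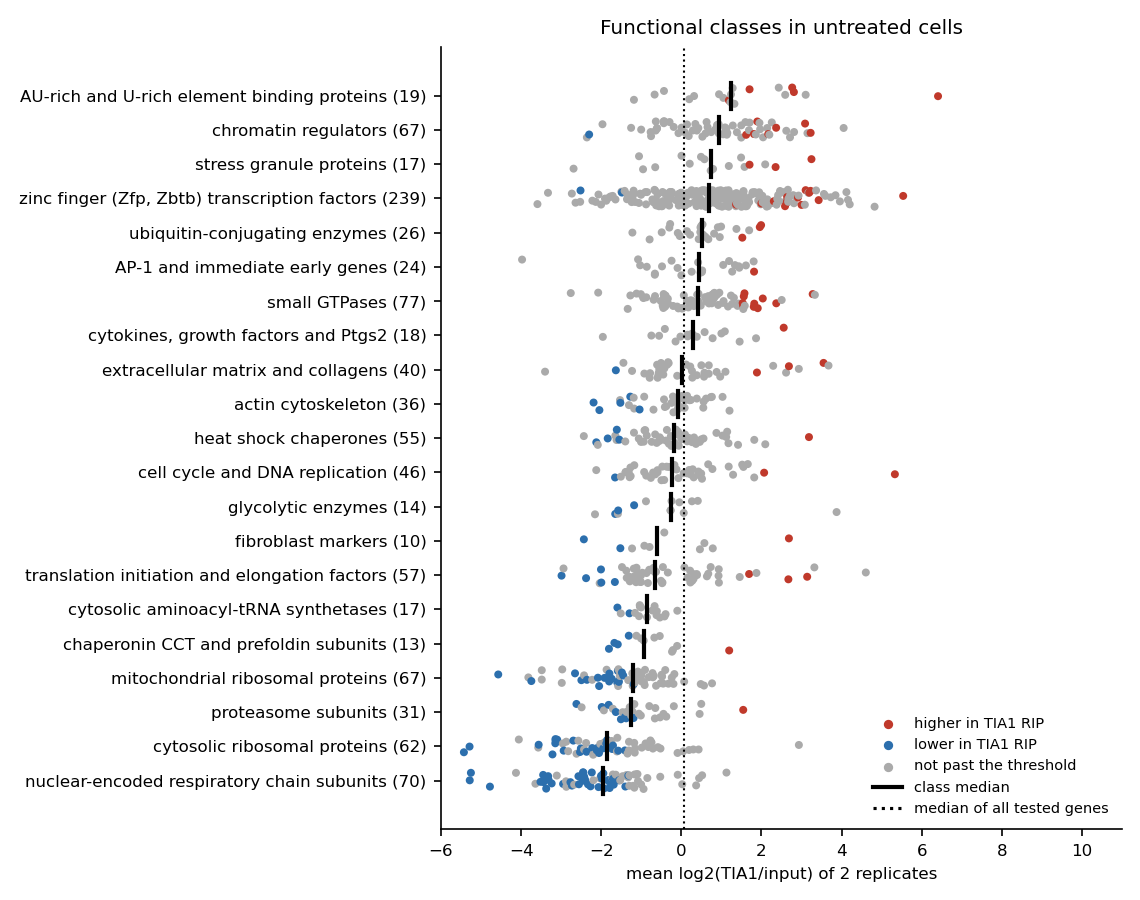
Mean log2(TIA1/input) of each tested gene (points) in the classes with at least 5 tested members, number in parentheses, with the class median as a bar and the median of all tested genes dotted. Medians run from −1.96 in respiratory chain subunits to 1.24 in genes of AU-rich and U-rich element binding proteins.

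AP-1 and immediate early genes (24 tested, median 0.45) had 1 higher (4.17%, against 6.01% of all genes) and 0 lower genes. It was Dusp1, a MAP kinase phosphatase gene, with 31.9 and 61.6 RPM in input and 98.2 and 252 RPM in TIA1 RIP (1.82 ± 0.29, SD, n = 2; edgeR adjusted p = 0.0318). Fosl2, the most abundant of them, was at 1.05 ± 0.57 and did not pass. Atf3 had only 5.05 and 10.6 RPM in input and was not listed in TIA1 RIP, and it did not pass. Myc, the proto-oncogene, was at 1.34 ± 0.26 and did not pass either.

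Of 18 genes of cytokines, growth factors and Ptgs2 (median 0.29), 1 was higher (5.56%, against 6.01% of all) and 0 lower. Hgf, hepatocyte growth factor, had 5.68 and 5.09 RPM in input and 31.8 and 36.5 RPM in TIA1 RIP (2.56 ± 0.24, SD, n = 2; edgeR adjusted p = 0.0478). Ptgs2, which encodes the prostaglandin synthase COX2, had 25.9 and 34.2 RPM in input and 55.7 and 122 RPM in TIA1 RIP, 1.46 ± 0.52, and did not pass (edgeR adjusted p = 0.0722). The chemokine genes Cxcl5 (−0.75 ± 0.14), the most abundant, and Cxcl1 (−1.96 ± 0.73), the lowest, did not pass.

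Extracellular matrix genes (40 tested) had a median of 0.01, with 3 higher (7.50%, against 6.01% of all) and 1 lower (2.50%, against 4.57%). Fn1, fibronectin, had 799 and 276 RPM in input and 2526 and 3624 RPM in TIA1 RIP (2.69 ± 1.45, SD, n = 2; edgeR adjusted p = 0.0329). Col5a1 (3.55 ± 1.71) and Thbs1 (1.89 ± 0.40) were the others, and Timp1 (−1.63 ± 0.01), an inhibitor of matrix proteases, was the lower one. Lox (0.68 ± 0.21), which crosslinks collagen and was the most abundant, Col28a1 (3.67 ± 0.31, not listed in input) and Lama4 (−3.40 ± 0.25) did not pass.

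Actin cytoskeleton genes (36 tested, median −0.09) had 5 lower (13.9%, against 4.57% of all) and 0 higher genes. The list also takes in Vim, an intermediate filament gene, which was among the 5 lower genes. Actb had 4691 and 1819 RPM in input and 2227 and 903 RPM in TIA1 RIP (−1.04 ± 0.05, SD, n = 2; edgeR adjusted p = 0.0438). It was lower although its main 3′UTR of 681 nt was 36.3% U and held 74 UUUUs. Tpm2, a tropomyosin gene, was the lowest at −2.19 ± 0.61, and Arpc1a, the highest at 1.20 ± 1.14, did not pass. Cell cycle genes (46 tested, median −0.24) had 2 higher (4.35%, against 6.01% of all), Cdk6 and Ccnd2 (2.07 ± 0.62), and 1 lower (2.17%, against 4.57%), Rfc2 (−1.65 ± 0.26). Cdk6, the kinase partner of D-type cyclins, was not listed in input and had 13.1 and 29.2 RPM in TIA1 RIP, at least 10.4-fold and 15.8-fold higher. Cdc45, the lowest at −2.12 ± 3.57, and Ccna2, the most abundant at 0.31 ± 0.09, did not pass.

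Heat shock chaperones (55 tested, median −0.19) had 4 lower genes (7.27%, against 4.57% of all) and 1 higher (1.82%, against 6.01%). Dnajb14 was the higher one, with 168 and 33.8 RPM in input and 1273 and 375 RPM in TIA1 RIP (3.19 ± 0.38, SD, n = 2; edgeR adjusted p = 0.0201) and a 3′UTR of 8094 nt. The mitochondrial co-chaperonin gene Hspe1 fell from 788 and 875 RPM to 144 and 252 RPM (−2.12 ± 0.46), with a 3′UTR of 117 nt. Dnajc17 (−2.43 ± 1.69) did not pass. Glycolytic enzymes (14 tested, median −0.27) had 3 lower (21.4%, against 4.57% of all) and 0 higher genes. Ldha, with 10347 and 12298 RPM in input and 9293 and 9766 RPM in TIA1 RIP, was at −0.24 ± 0.13 and did not pass. Neither did Hk1 (3.88 ± 0.20, not listed in input) and Ldhb (−2.15 ± 2.46).

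Of the 10 fibroblast markers, Fn1 was higher (10.0%, against 6.01% of all genes). S100a4 (−2.43 ± 0.26) and Vim (−1.52 ± 0.33) were lower (20.0%, against 4.57% of all). The median of the 10 markers was −0.61. The nuclear-retained noncoding RNAs Malat1 and Neat1 were scarce in these cytoplasmic libraries. Malat1 had 1.58 and 0 RPM in input and 5.19 and 21.7 RPM in TIA1 RIP, and Neat1 had 7.58 and 18.98 RPM in input and 19.7 and 40.9 RPM in TIA1 RIP. Neither passed (3.46 ± 2.84 and 1.21 ± 0.17). Meg3, another noncoding RNA of the same list, passed at 2.34 ± 0.76 (SD, n = 2; edgeR adjusted p = 0.0489). All TIA1 values of the 3 were above their paired inputs, and how much nuclear RNA reached the RIP was not tested. Of the 8 blood and endothelial markers 2 had reads, Cd68 and Lyz2, and of the 9 muscle markers only Ckm, with 13 reads in 1 TIA1 library. Cd68 was at −2.98 ± 0.92 and did not pass.

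Genes that end at more than 1 site gave a view within the same message. For 4432 genes with at least 20 reads at each of their 2 most abundant 3′UTR sites, the distal isoform (dPAS) had the higher log2(TIA1/input) in both replicates in 42.9% (1900 genes), and the proximal isoform (pPAS) in 693 genes. The median difference was 0.60 and the median distance between sites 594 nt. Among the least bound 10% of genes, 102 of 222 had the distal isoform higher in both replicates and 41 the proximal one, and among the most bound 10% these numbers were 186 and 73 of 540.

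The isoforms of single genes differed in the same way. Nmt1, an N-myristoyltransferase gene, had −2.72 ± 0.42 at 337 nt and 0.17 ± 0.65 at 3144 nt. Timp2 had −2.21 ± 0.71 at 110 nt and −0.25 ± 0.37 at 2638 nt, and Tial1 had −0.35 ± 1.07 at 741 nt and 2.26 ± 0.01 at 2756 nt.

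Cox5b, the highest of the respiratory chain genes, showed the same order. Its scarce 87-nt isoform, with 30 and 20 reads in input, was not listed in TIA1 RIP, whereas its 372-nt isoform had 1270 and 226 reads in input and 1753 and 1908 in TIA1 RIP (1.20 ± 0.85). Purb is annotated as a pair of neighbouring genes of the same name on chromosome 11, and the downstream one (ENSMUSG00000049647.3) was higher in TIA1 RIP, from 21.1 and 31.5 RPM to 105 and 314 RPM (2.79 ± 0.71, SD, n = 2; edgeR adjusted p = 0.0237). The upstream one (ENSMUSG00000091207.1) was at −0.04 ± 0.35. Not every gene followed the order. Pfdn2 was higher at its 144-nt site (1.26 ± 0.00) than at 1228 nt (−0.08 ± 0.68), and Smarcal1 was higher at 80 nt (6.35 ± 1.81) than at 2601 nt (4.88 ± 3.18). Cycs, which encodes cytochrome c, had few reads and did not pass (−3.11 ± 2.52).

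The stability of the same genes had been read from other libraries of untreated cells. There, newly made RNA was labelled with 4-thiouridine (4sU) and separated from pre-existing RNA in the flow-through (Ft), so that log2(Ft/4sU) is higher for stable messages. It came from 2 pairs of libraries of untreated cells, labelled 0 h and 4 h of recovery, which the study took as 2 replicates. The most bound 10% of genes had a median log2(Ft/4sU) of −1.36 at 0 h and −1.41 at 4 h, the least bound 10% had 0.50 and 0.65, and all genes −0.17 and −0.19. U content affects 4sU labelling, for which the study adjusted by the Us of each transcript. Here only the Us of the 3′UTR were counted. Their number rises with 3′UTR length, so this adjustment also takes out differences that go with length. After adjustment by regression on the log2 number of Us in the 3′UTR, the medians over both times were −0.89 in the most bound, −0.02 in the least bound and −0.22 in all genes, against −1.38, 0.57 and −0.19 before. Across 5614 genes of at least 20 RPM, the Pearson r with log2(TIA1/input) was −0.61, and −0.30 after adjustment. Before adjustment all 12 highest genes were below 0, from −3.67 in Bahcc1 to −0.22 in Ppp1r13l, and all 12 lowest were above 0, from 0.37 to 1.61. Of all tested genes 56.9% were below 0, and Ppp1r13l lay close to their median of −0.19. After adjustment Wwp2 (0.03) and AW555464 (−0.09) among the highest were above the median of all genes, −0.22. Among the lowest, Atp5h (−0.22), Mrps18c (−0.28) and Uqcr11 (−0.40) were then below 0, and Pigyl was at about 0.

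The most bound genes were also scarcer in the cytoplasmic input than in total RNA of untreated cells. The median of log2(input/total), from 2 input and 3 total RNA libraries, was −0.61 in the most bound, −0.14 in the least bound and −0.15 in all genes. Part of this shares the input libraries with log2(TIA1/input), which lowers one as it raises the other.

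TIA1 RIP from arsenite-treated cells, with its own input, gave a reading of the same genes in libraries that had no part in choosing them. Of the 528 genes higher in NT cells, 513 were above 0 in both AS replicates, against 42.3% of all genes, and 411 of the 526 tested there passed. Of the 401 lower genes, 390 were below 0 in both AS replicates, against 31.4% of all genes, and 329 passed. In AS cells 20.1% of 9033 genes passed in all. Across the 5614 genes of at least 20 RPM, mean log2(TIA1/input) in NT and AS cells correlated with a Pearson r of 0.83.

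The difference between AS and NT cells was tested in 1 model of all 8 libraries. It left 2 of 9582 genes (0.0209%), both with a lower log2(TIA1/input) in AS cells, and 391 genes at an unadjusted p under 0.05. Both were leading genes. AW555464 had 65.7 and 31.9 RPM in AS input and 85.3 and 81.7 RPM in AS RIP, so that its log2 value was 0.86 ± 0.69 in AS and 4.34 ± 0.54 in NT cells (difference −3.50, SE 0.50, edgeR adjusted p = 0.0481). Tenc1 had 1.66 and 5.90 RPM in AS input and 5.38 and 29.8 RPM in AS RIP, 1.85 ± 0.56 against 8.22 ± 1.68 (edgeR adjusted p = 0.0407), and its fitted difference of −10.08 depends on the prior count because the NT inputs were at 0. Both calls were lost without the replicate block.

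**Figure D5:**
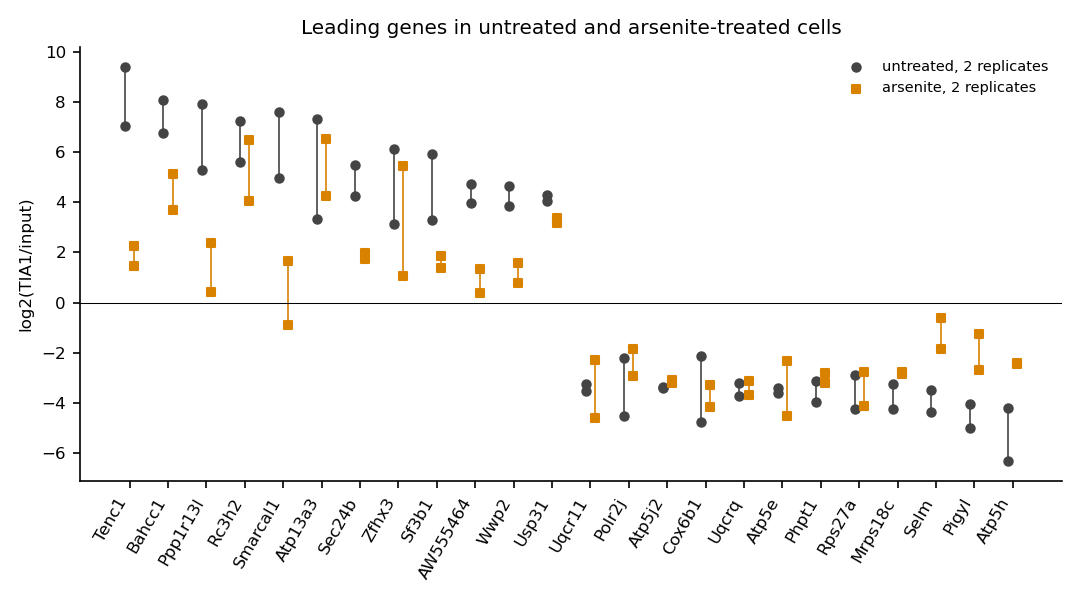
Log2(TIA1/input) of the 12 highest and 12 lowest genes in both replicates of untreated (circles) and arsenite-treated (squares) cells, joined by a line per condition. Among the 12 highest, Rc3h2, Atp13a3 and Zfhx3 overlap between conditions, and in the other 9 both untreated points lie above both arsenite points.

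The other leading genes did not pass this test in the fit with edgeR and the filter on low counts. Their smallest adjusted p was 0.0759, for Smarcal1, with 1758 and 964 RPM in NT RIP and 31.5 and 22.7 RPM in AS RIP, and for Sec24b, with 1002 and 2585 RPM in NT RIP and 187 and 253 RPM in AS RIP. With no filter on low counts, Smarcal1, Ppp1r13l, Sec24b and Wwp2 also passed in edgeR (adjusted p = 0.00191, 0.00482, 0.00613 and 0.0286). They passed in DESeq2 as well, where the adjusted p-values were 0.0245, 4.29e-07, 4.24e-08 and 0.00102. Of the 12 highest genes 11 had a smaller mean in AS than in NT cells, which in part follows from choosing them by their NT values. The 7 with U-poor 3′UTRs had a median of 6.29 in NT and 1.41 in AS cells, and each was lower in AS by 3.01 to 6.37. The 5 with U-rich 3′UTRs had medians of 4.64 and 3.27, and their differences ran from −0.05 (Atp13a3) to 2.99 (Sf3b1). In the most bound 10% as a whole, the median fall was 1.15 among 226 genes with a U share below that of the median gene, and 0.65 among the other 637. Over all tested genes, the median of NT minus AS was −0.12 below that U share and −0.003 at or above it. The larger fall of U-poor genes was thus seen in groups chosen by high NT values and not across all genes. This split was made after the values were seen and was not tested.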

How the data were processed

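Untreated NIH3T3 TIA1 RIP and input were compared, 2 libraries each, with arsenite, total RNA and 4sU libraries read beside them. Per the study's methods and the submitters' processing notes, adapters were cut off with Cutadapt, alignment to mm9 was by bowtie2 with local settings, and reads of mapping quality 10 or more with extra Ts marked PASs. The authors deposited counts of such reads per PAS cluster, not normalized. From these counts, sites of 15 libraries (74405 positions) were joined within 24 nt into 64338 clusters, and 39953 were assigned to 12042 GENCODE version M1 genes on NCBIM37 (mm9). The 95 ambiguous clusters were left out, and the other libraries of the 42 were not used. Of the assigned clusters, 54.5% had AATAAA or ATTAAA within 45 nt upstream.

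RPM used reads assigned to genes. Genes passing edgeR's filterByExpr were fitted with edgeR 4.0.16 (R 4.3.3), quasi-likelihood test, replicate plus fraction, Benjamini-Hochberg. The pairing comes from the shared lysate, and deviations of same-numbered libraries from their group means correlated with r = 0.33 over 8780 genes. The arsenite difference was the interaction of fraction with treatment, with pair and fraction in the model. Its SE was the size of the fitted log2 difference divided by the square root of the quasi-likelihood F. The scripts were tested on simulated counts with a smaller spread between replicates than these data, whose common dispersion was 0.202 in the main fit. That test therefore does not show how reliable the calls are here. A 3′UTR runs from the stop codon to the main PAS, the site with most reads in the 4 libraries. P-values measure the spread between 2 replicates, which the study calls biological.

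Named genes were the 12 highest and 12 lowest past the threshold with the same sign in both replicates and at least 20 RPM, each list's highest, lowest and, by input level, most abundant member, 14 genes listed by name (Gapdh and Tmem248 were not among the tested genes), and up to 5 interaction calls in each direction. The members and lists were chosen with earlier results of these data known. Alternatives varied scaling, filter, site assignment, block, pseudocount (5 and 0.1 RPM), libraries and cut points, and the DESeq2 1.42.0 Wald test was run. Some items of the lists and sequences are not reported here.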

Additional observations from a re-analysis of the deposited data

Results flagged for a closer look

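Log2(TIA1/input) of Tenc1 differed between arsenite-treated and untreated cells by −10.08 (SE 1.25, edgeR interaction test, adjusted p = 0.0407), a fitted value that rests on inputs at 0 in untreated cells. Its SE was derived from that value and the F of the test, so it does not measure precision there. The log2(TIA1/input) of AW555464 differed by −3.50 (SE 0.50, edgeR adjusted p = 0.0481). Each was lower in both arsenite replicates than in both untreated replicates. In the DESeq2 fit with the replicate block the adjusted p-values were 9.47e-05 and 1.27e-08, and without the block neither passed in edgeR. Fits with 1 of the 8 libraries left out also drop the block, so they cannot show whether a call rests on 1 library. Their differences ran from −11.70 to −8.32 in Tenc1 and from −3.97 to −2.93 in AW555464. With TMM factors Tenc1 passed and AW555464 did not (adjusted p = 0.0502).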

How the results depend on the processing

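Without the replicate block, the 929 genes past the threshold all kept their direction, which the use of the same libraries makes likely. There edgeR called 0 genes, with 1794 at an unadjusted p under 0.05 and a smallest adjusted p of 0.115. The paired fit rests on 1 residual degree of freedom. Leaving out 1 library at a time, which also drops the block, left 0 to 94 genes: 94 without input replicate 1, 51 without input replicate 2, 5 without TIA1 replicate 1 and 0 without TIA1 replicate 2. Sharing the spread of all 8 libraries called 1813 genes, and taking all listed PAS reads as library size, an alternative chosen after seeing the data, called 1430. Other scalings, filters and site assignments gave 803 to 1378. The 2 genes that differed in arsenite-treated cells became 0 in edgeR without the replicate block (215 at an unadjusted p under 0.05), 1 with TMM factors, 24 with DESeq2 and 8 with no filter on low counts. Fits of this difference without each library in turn also drop the block, so the 2 changes cannot be told apart. The median of the bin of longest 3′UTRs minus that of the shortest, 2.17, was 1.72 with a pseudocount of 5 RPM and 2.02 to 2.24 with 1 replicate left out. Of 490 alternative values of named genes, 486 kept their sign, and no named gene past the threshold reversed. Of 147 alternative class medians, 4 changed sign: extracellular matrix genes with TMM factors (−0.08) and without replicate 1 (−0.27), and cell cycle (0.23) and glycolytic genes (0.07) without replicate 2. Setting genes that were unlisted in 1 fraction at their bound moved no class median. Classes held few or no such genes, and these lie at the ends, so it could hardly have come out otherwise. Genes at a few RPM rest on few reads, since clusters under 5 reads are not listed.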
